A study of Mus musculus with 4 samples.

Results

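The killer cell lectin-like receptors are membrane proteins first described on natural killer cells, and effector CD8+ T cells switch several of them on after infection. Here 9 of their genes were followed: Klrg1, Klrc1, Klrc2, Klrd1, Klrk1, Klrb1c, Klre1, Klra9 and Klra7. They were found by exact symbol among the 27998 genes of the table, where 17 other symbols begin with Klr. The cells were splenic CD8+ T cells of C57bl/6 background that bound the H-2Db-GP33 tetramer, which detects T cells specific for a glycoprotein peptide of lymphocytic choriomeningitis virus (LCMV), and were taken 8 days after infection with the Armstrong strain. Each host was a sublethally irradiated Rag1-/- mouse, which makes no T or B cells of its own, given equal parts of wild type (WT) and Bcl3-/- bone marrow. Bcl3 is an atypical IκB protein that modulates NF-κB p50 and p52. WT cells carried CD45.1 (B6.SJL marrow) and Bcl3-/- cells CD45.2, so genotype and congenic donor cannot be told apart, and Bcl3 was absent from the whole donor marrow, not from T cells alone. Both genotypes were sorted from each of 2 chimeras, which gave 4 single-cell libraries: WT1 and KO1 from chimera 1, WT2 and KO2 from chimera 2. Each pair came from 1 animal, and the second chimera was a separate experiment. The ages of the animals were not given in the sources used here.

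Natural killer cells and T cells use these receptors to read self and stressed-self proteins on a target cell. CD94, encoded by Klrd1, pairs either with NKG2A (Klrc1), which inhibits, or with NKG2C (Klrc2), which activates, and both pairs bind the nonclassical molecule Qa-1. NKG2D (Klrk1) binds stress ligands and signals through DAP10. KLRG1 binds cadherins, inhibits, and is the surface protein most used to mark short-lived effector cells, whereas memory precursors keep the interleukin 7 receptor. NK1.1 is the product of Klrb1c, KLRE1 belongs to the same family, and the Ly49 receptors encoded by the Klra genes bind class I molecules, each on a subset of cells.

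The libraries held 21193300 (WT1), 20358780 (WT2), 22922219 (KO1) and 22672343 (KO2) unique molecular identifiers (UMIs). Barcodes were kept as cells from 500 genes upward and up to 10% mitochondrial UMIs, which left 4941, 8092, 5366 and 6494 cells, in the same order. Median depth was lowest in WT2, at 2019 UMIs a cell, against 3571 in WT1, 3620.5 in KO1 and 2948 in KO2. Cd8b1 was at 2069, 1808, 2203 and 2125 UMIs per 1000000 UMIs of the library (CPM) in the T cell clusters, and Cd4 at 2.77, 2.86, 2.63 and 1.74 CPM, so the markers of the sort were present and Cd4 was near 0. Bcl3 itself was at 34.0 CPM (WT1), 106 (WT2), 28.4 (KO1) and 83.4 (KO2). The level followed the chimera more than the genotype, and the fitted log2 difference of −0.33 (SE 0.58) had an adjusted p of 0.837 (0.0201 with chimera as a block). Which part of Bcl3 is deleted is not stated, so reads from its 3′ end do not check the labels. Each pair of libraries shared between 37 and 63 cell barcodes, where chance would give 36.0 to 71.3.

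All 9 genes lie on chromosome 6, in the natural killer gene complex except Klrg1, which sits several megabases before it. On the GRCm38 build Klrg1 spans chr6:122270596-122282882 and Klrb1c chr6:128778485-128789215, both on the minus strand. Klre1 (chr6:129577905-129585827) and Klrd1 (chr6:129591782-129598775) are neighbors on the plus strand. Klrk1 (chr6:129610323-129623864), Klrc2 (chr6:129647496-129660689) and Klrc1 (chr6:129666015-129678973) follow on the minus strand. Klra9 (chr6:130178675-130193112) and Klra7 (chr6:130218605-130233322) lie in the Ly49 cluster, also on the minus strand. Paralogs in this region share sequence: 27.3% of the 98-base windows in the last 500 bases of the Klrc1 transcript also occur in Klrc2, against 11.7% for Klra9 and 6.45% for Klra7 with other Ly49 loci. How the counting treated such reads makes the split between these genes uncertain. No window from the last 500 bases of the other 6 members occurred elsewhere, although Klrc2 holds the windows shared by Klrc1.

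Promoters are shown for the members whose window holds TGTGGT, the core letters bound by Runx factors, which are 5 of the 7 members with enough UMIs to follow through the T cell states. RefSeq promoter windows, 250 bases before to 50 after a start site, were found for 7 of the 9 members, and none for Klrg1 and Klrd1. TGTGGT was searched on both strands and stands in capitals. It occurred in a window of Klrb1c, Klre1 (1 of its 2 windows), Klrk1, Klrc1 and Klrc2 and in none of Klra9 or Klra7, and in 16.8% of all 32851 promoter windows. The T-box letters GGTGTGA occurred in none of the 7 and in 3.98% of all windows. TGANTCA, the AP-1 letters, occurred in Klrk1 and Klrc2 and in 7.81% of all. The κB letters, GGG and CC with 5 free bases between them, are those of the factor family that Bcl3 modulates and occurred in Klrb1c alone and in 50.8% of all. A match is a description of letters and not a bound site. The windows, from GRCm38.p6 and written 5′ to 3′ on the strand of the gene, are at chr6:128788592-128788891 (minus), chr6:129577963-129578262 (plus), chr6:129623815-129624114 (minus), chr6:129678924-129679223 (minus) and chr6:129660547-129660846 (minus), in the order printed.
Klrb1c: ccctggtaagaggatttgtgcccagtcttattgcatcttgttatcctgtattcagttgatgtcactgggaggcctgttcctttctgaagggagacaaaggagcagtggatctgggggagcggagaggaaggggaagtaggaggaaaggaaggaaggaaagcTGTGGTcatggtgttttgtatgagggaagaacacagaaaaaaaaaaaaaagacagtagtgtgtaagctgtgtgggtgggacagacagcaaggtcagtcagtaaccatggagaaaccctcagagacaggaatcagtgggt
Klre1: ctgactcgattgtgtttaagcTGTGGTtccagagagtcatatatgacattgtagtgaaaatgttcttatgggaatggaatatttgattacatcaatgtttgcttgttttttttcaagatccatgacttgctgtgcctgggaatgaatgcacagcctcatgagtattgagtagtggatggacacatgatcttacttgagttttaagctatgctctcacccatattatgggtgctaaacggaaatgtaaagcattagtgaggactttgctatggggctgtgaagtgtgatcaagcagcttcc
Klrk1: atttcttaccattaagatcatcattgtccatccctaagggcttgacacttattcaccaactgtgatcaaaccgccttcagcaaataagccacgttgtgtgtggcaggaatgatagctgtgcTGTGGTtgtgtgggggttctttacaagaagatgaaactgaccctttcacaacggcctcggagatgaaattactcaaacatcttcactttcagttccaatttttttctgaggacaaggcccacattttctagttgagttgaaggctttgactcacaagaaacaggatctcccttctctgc
Klrc1: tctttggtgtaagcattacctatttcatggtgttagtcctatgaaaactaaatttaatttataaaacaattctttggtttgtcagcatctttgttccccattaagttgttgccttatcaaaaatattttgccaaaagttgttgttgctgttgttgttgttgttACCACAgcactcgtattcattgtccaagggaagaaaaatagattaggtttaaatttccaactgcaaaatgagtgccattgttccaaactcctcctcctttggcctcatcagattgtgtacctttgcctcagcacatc
Klrc2: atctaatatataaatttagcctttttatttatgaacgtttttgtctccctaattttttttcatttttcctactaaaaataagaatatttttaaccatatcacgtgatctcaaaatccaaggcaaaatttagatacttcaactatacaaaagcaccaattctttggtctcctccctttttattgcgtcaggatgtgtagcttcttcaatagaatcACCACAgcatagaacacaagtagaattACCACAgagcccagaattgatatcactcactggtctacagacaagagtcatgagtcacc

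Summed over all cells of a library, Klrd1, Klrk1, Klrc1 and Klrg1 had at least 3057 UMIs in each library, Klrc2, Klrb1c and Klre1 had 325 to 730, and Klra9 and Klra7 had 15 to 114. Unless stated otherwise, levels below are CPM after scaling by the trimmed mean of M values (TMM). Sums over marker lists, levels in cells with or without a Klra gene and levels in barcodes below the filter are plain CPM. Since each transcript is counted once at its 3′ end, no correction for length applies. In such sums, fewer cells of a type and less RNA per cell cannot be told apart. The clusters of T cells held nearly all of it: at least 92.4% of each member's UMIs per library came from them.

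The genes of the CD94 chain and of its inhibitory partner were at higher levels than that of its activating partner. Klrd1 was at 484 CPM (WT1), 433 (WT2), 534 (KO1) and 458 (KO2). The genotypes overlapped, KO2 lying below WT1. Klrc1 was at 287 CPM (WT1), 202 (WT2), 333 (KO1) and 355 (KO2), with both Bcl3-/- libraries above both WT libraries and WT2 the lowest. Klrc2, the activating partner, was at 19.96, 18.6, 31.5 and 27.7 CPM in the same order, again without overlap. Its WT mean was 19.3 ± 0.957 CPM and its Bcl3-/- mean 29.6 ± 2.64 CPM (SD, n = 2 each).

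Klrg1, the marker of short-lived effectors, was at 166 CPM (WT1), 157 (WT2), 245 (KO1) and 198 (KO2). Both Bcl3-/- libraries exceeded both WT libraries, with means of 221 ± 33.2 and 162 ± 6.30 CPM (SD, n = 2 each). Klrk1, the NKG2D gene, was at 276, 304, 333 and 320 CPM, the narrowest spread of the members in fold terms together with Klrd1. These genotypes did not overlap either, but KO2 exceeded WT2 by 0.07 on the log2 scale.

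Klrb1c and Klre1 differed most between the WT libraries, and their levels followed neither the chimera nor the genotype. Between the chimeras the Bcl3-/- libraries differed in the opposite direction to the WT libraries. Klrb1c was at 16.5 CPM (WT1), 37.0 (WT2), 26.9 (KO1) and 22.8 (KO2), and Klre1 at 18.7, 36.5, 34.3 and 24.1 CPM. For both genes WT1 was the lowest library and WT2 the highest, with the Bcl3-/- libraries in between. Klra9 rested on 28, 15, 27 and 28 UMIs and Klra7 on 26, 114, 66 and 54 UMIs in WT1, WT2, KO1 and KO2. At that depth Klra9 could not be followed, and Klra7 was likewise highest in WT2.

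**Figure D1:**
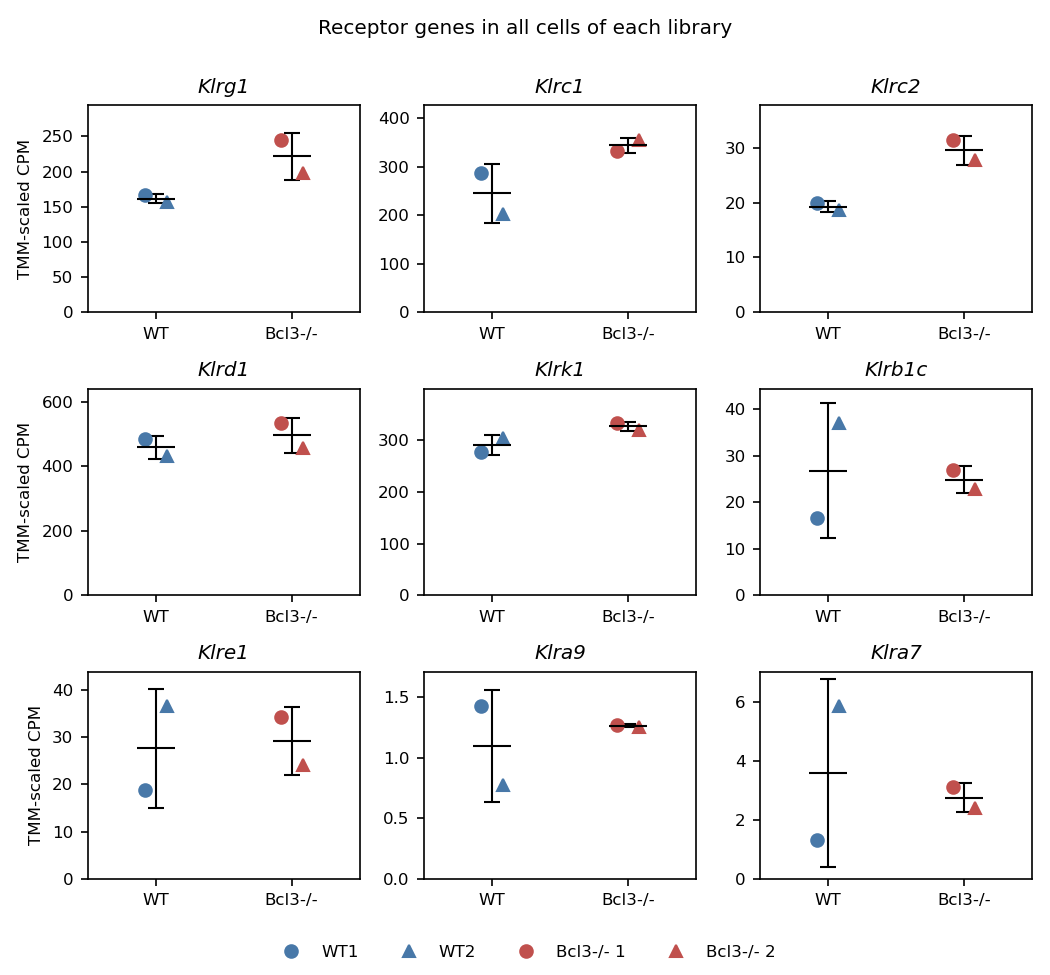
Level of each of the 9 genes summed over all cells, in TMM-scaled CPM on linear axes, one panel per gene, with a point for each library and the mean ± SD of the 2 libraries of a genotype. For Klrg1, Klrc1, Klrc2 and Klrk1 both Bcl3-/- points lie above both WT points, and for Klrb1c, Klre1 and Klra7 WT1 and WT2 lie at the extremes.

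Bcl3-/- over WT, Klrc2 differed by 0.62 on the log2 scale (SE 0.11), Klrc1 by 0.49 (SE 0.16) and Klrg1 by 0.46 (SE 0.12). None of the 9 members passed the test without the block, the quasi-likelihood test of edgeR with p-values adjusted by Benjamini-Hochberg over 11566 genes (threshold 0.05), which called 0.363% of the genes. The adjusted p was 0.0944 for Klrc2, 0.236 for Klrc1 and 0.167 for Klrg1, the 3 members with an unadjusted p under 0.05. Of the 11566 genes, 1808 had an unadjusted p under 0.05. With chimera as a block, which compares the genotypes within each animal, the same test called Klrg1 (adjusted p = 0.00164), Klrc1 (0.00675) and Klrc2 (0.00157), 3 of the 9 and all higher, where it called 4.81% of all genes as higher in Bcl3-/- cells. DESeq2 called Klrc2 alone among the members (adjusted p = 0.0469), with 0.762% of its genes called as higher. Without WT1 the log2 difference of Klrc1 was 0.77 (adjusted p = 0.0228, edgeR), where 1.36% of genes were called as higher. In the T cell clusters alone none of the 9 was called (0.288% of all genes), and with the block the same 3 members were, where 7.09% of genes were called as higher.

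Within chimera 1 the log2 ratio of Bcl3-/- to WT was 0.56 for Klrg1 and within chimera 2 it was 0.33. Klrc2 gave 0.66 and 0.58, and Klrc1 0.21 and 0.81. Klrd1 had a log2 ratio of 0.14 in chimera 1 and 0.08 in chimera 2, and its fitted difference of 0.12 (SE 0.12, edgeR adjusted p = 0.698) did not pass. Klrk1 gave 0.27 and 0.07, with a fitted difference of 0.17 (SE 0.10, adjusted p = 0.443). Klrb1c and Klre1 had log2 ratios of 0.71 and 0.87 in chimera 1 and of −0.70 and −0.60 in chimera 2. Over 4 libraries 4 of the 9 members, Klrg1, Klrc1, Klrc2 and Klrk1, had both Bcl3-/- values above both WT values, and so had 25.3% of the genes tested. The summed level of the 7 markers that define the terminal effector state was also higher in both Bcl3-/- libraries. It was 1204, 1525, 2168 and 2230 plain CPM, without TMM scaling, in WT1, WT2, KO1 and KO2. Most of it was Gzma, at a mean of 1470 CPM, so the sum does not show how many of the 7 were higher. The part of these markers in the differences above was not tested.

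The share of cells in which a gene was seen was compared after thinning each cell to 1000 UMIs, which left out 25, 223, 15 and 19 shallower cells in WT1, WT2, KO1 and KO2. Klrg1 was seen in 13.9% of cells (WT1), 13.9% (WT2), 19.2% (KO1) and 16.8% (KO2), and Klrc1 in 24.1%, 19.3%, 27.6% and 29.9%. Both genes were seen in more Bcl3-/- cells in each chimera, by 4.15 percentage points for Klrg1 and 6.98 for Klrc1 on average. Klrc2 was seen in 2.10%, 2.06%, 3.33% and 2.90% of cells. An exact 2-sided permutation test over 2 against 2 libraries cannot go below 0.33, which is what Klrg1, Klrc1, Klrc2 and Klrk1 gave. Counting error alone, as exact Clopper-Pearson 95% intervals, was 12.9% to 14.9% for Klrg1 in WT1 and 18.2% to 20.3% in KO1. Unthinned, Klrg1 had a UMI in 35.8%, 24.9%, 49.6% and 38.5% of the cells in T cell clusters, values that carry the depth of each library.

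UMIs that reach a barcode from another cell set a floor under such shares, and whether free RNA or doublets brought them was not tested. B cell-like clusters, which should lack these receptors, had a thinned Klrg1 UMI in 1.90% of cells (WT1), 3.604% (WT2), 3.73% (KO1) and 2.36% (KO2). Their median depth before thinning was 2297, 1974, 2901 and 2637 UMIs. Klrd1 was the member seen most often in them in 3 of the 4 libraries, in 9.52%, 4.50%, 12.7% and 5.51% of cells in the same order, and in KO2 it was Klrk1 (7.09%). Klrc2 was seen there in 1 of 105, 1 of 111, 0 of 134 and 0 of 127 cells, and a count of 0 at this depth does not limit the share of cells that express it.

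T cell states were formed by clustering each library with every Klr gene left out of the variable genes, so that no receptor was itself used to form them. A cluster was named only where at least 3 markers of one state were 2-fold above the other cells. Terminal effector-like cells (led by Gzma, Zeb2 and Cx3cr1) numbered 627 (WT1), 1669 (WT2), 957 (KO1) and 1021 (KO2). Memory precursor or naive-like cells, here MPEC/naive-like (by a list with Il7r and Tcf7), numbered 324, 474, 132 and 208, and the KO1 cluster also had Cd4 among its leading genes. Cycling cells numbered 595, 1047, 590 and 695, interferon-stimulated cells 110, 339, 415 and 410, and the T cell clusters that met no list, called unnamed here, 2971, 4192, 2857 and 3719. Since Zeb2 and the summed level of the terminal markers, mostly Gzma, were higher in both Bcl3-/- libraries, the sizes of these classes are not compared. Levels by class are plain CPM, without TMM scaling.

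The 7 members with enough UMIs were all highest in terminal effector-like cells, in 4 of 4 libraries, against the unnamed, cycling, interferon-stimulated and MPEC/naive-like classes, each pooled over its clusters. This is a description with no test, because the classes were cut from the same cells. Klrg1 had the steepest mean gradient to the MPEC/naive-like class, though not in every library: in the terminal class it was at 236, 289, 577 and 580 CPM in WT1, WT2, KO1 and KO2, against 27.5, 18.2, 67.8 and 21.1 CPM in the MPEC/naive-like class. In B cell-like clusters, which should lack these receptors, it was at 17.5, 70.3, 57.1 and 49.0 CPM. The MPEC/naive-like levels thus lay near or below that background, so the size and ranking of ratios to them are uncertain. The log2 ratio (CPM + 1) of the terminal class to MPEC/naive-like cells was 3.69 ± 0.79 for Klrg1 (SD, 4 libraries). In WT1 that of Klrb1c (3.10 against 3.06) and in KO1 those of Klrb1c (3.19) and Klre1 (3.13, against 3.07) were slightly larger, and toward the unnamed class the mean log2 ratio was 1.07 ± 0.69 for Klrg1, 1.78 for Klrb1c and 1.69 for Klre1. That of Klrg1 was lowest in WT1, at 0.27, and its mean was 1.66 with the Klr genes kept in the clustering and 1.59 with 30 principal components. Its order among the other classes shifted between libraries, with the cycling class at 130 and 125 CPM in WT1 and WT2 and 239 and 200.2 in KO1 and KO2, and the unnamed class at 196, 172, 203 and 169.

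Klre1 and Klrb1c were also steep. Klre1 was at 58.7, 69.9, 120.1 and 93.0 CPM in the terminal class of WT1, WT2, KO1 and KO2, and at 8.34, 5.05, 12.8 and 7.55 in MPEC/naive-like cells, a log2 ratio of 3.20 ± 0.40. Klrb1c was at 50.7, 88.2, 91.8 and 82.2 CPM in the terminal class and 5.01, 8.08, 9.16 and 28.7 in MPEC/naive-like cells, a log2 ratio of 2.77 ± 0.86. In B cell-like clusters Klre1 was at 5.85, 6.70, 10.6 and 0 CPM and Klrb1c at 0, 6.70, 8.45 and 2.72 CPM. Several of the MPEC/naive-like levels lay near that background. In the cycling class both genes were low, at most 19.6 CPM for Klrb1c and 15.9 CPM for Klre1.

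Klrd1, Klrc1 and Klrk1 were above their B cell-like level in all T cell classes of each library. Klrc2 was not: in MPEC/naive-like cells of WT2 it was at 9.08 CPM (9 UMIs), beside 10.0 CPM in the B cell-like cluster. Klrd1 was at 716, 621, 787 and 719 CPM in the terminal class of WT1, WT2, KO1 and KO2 and still at 381, 288, 328 and 304 CPM in MPEC/naive-like cells, a log2 ratio of 1.13 ± 0.16. Klrk1 ran from 479 to 518 CPM in the terminal class and from 148 to 240.2 CPM in MPEC/naive-like cells, a log2 ratio of 1.31 ± 0.26. Klrk1 ranged from 333 to 387 CPM in interferon-stimulated cells, beside 298 to 364 CPM in the unnamed class. Klrc1 was at 390, 309, 571 and 598 CPM in the terminal class and between 128 and 180 in MPEC/naive-like cells, a log2 ratio of 1.45 ± 0.31, and Klrc2 had a log2 ratio of 1.36 ± 0.36.

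**Figure D2:**
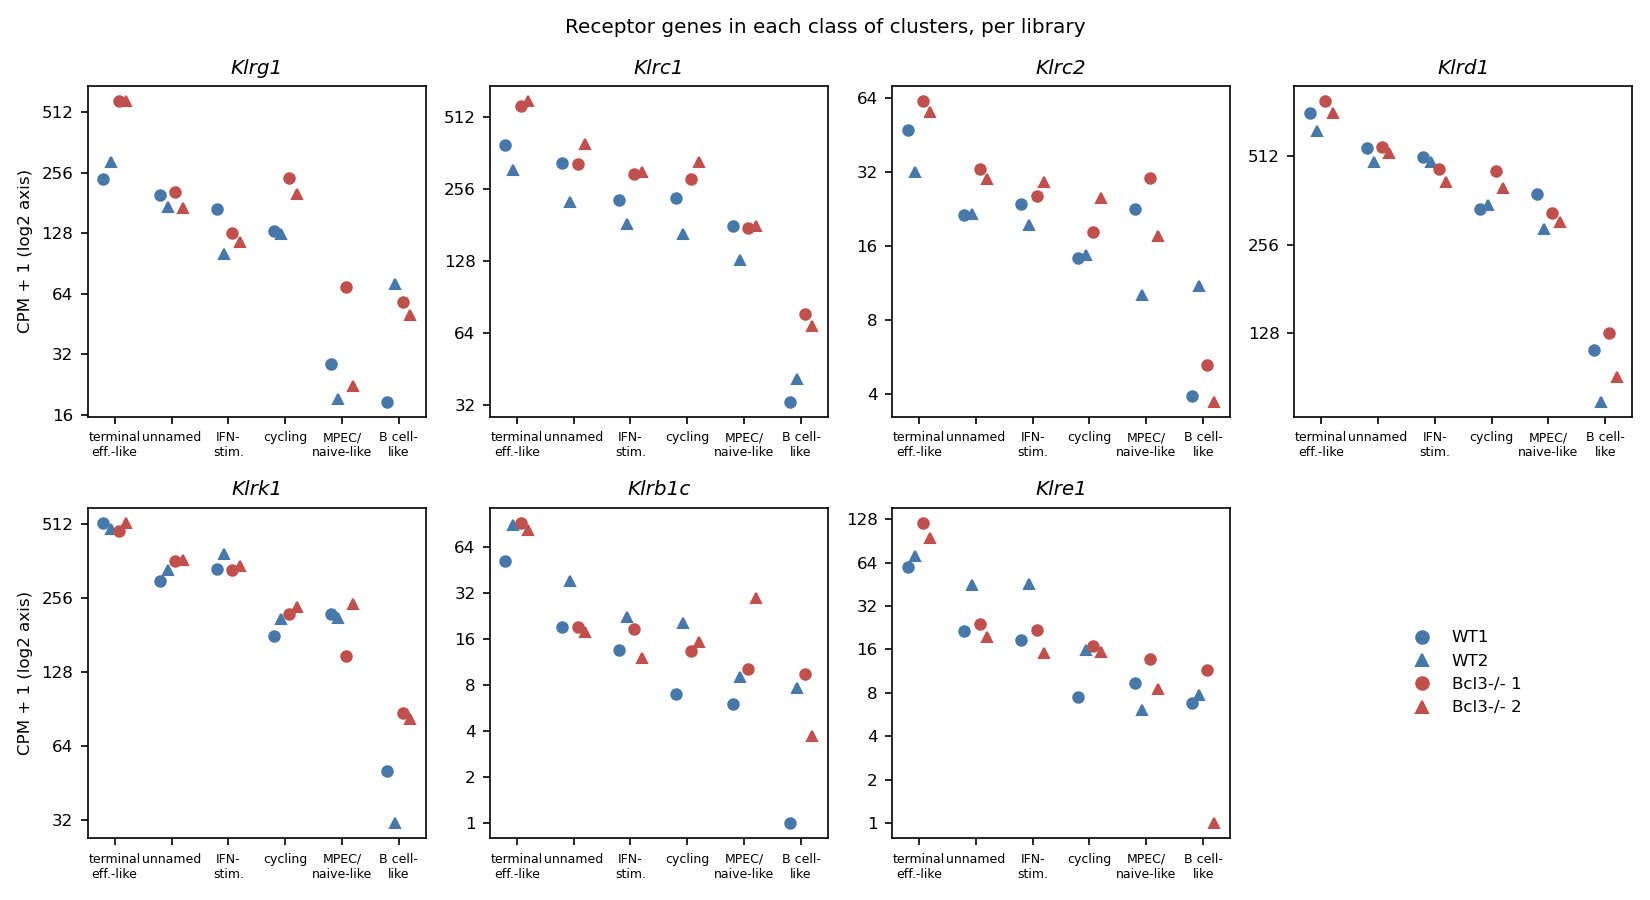
Level of 7 members in 6 classes of clusters, as CPM + 1 on a log2 axis, with a point for each of the 4 libraries. Every member sits highest in the terminal effector-like class, and Klrg1, Klre1 and Klrb1c fall farthest toward MPEC/naive-like cells.

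Within the terminal effector-like class, 3 of the 9 members rose in Bcl3-/- cells, all of which were tested, where 1.09% of all genes were called as higher. Klrg1 was at 238 TMM-scaled CPM (WT1), 287 (WT2), 596 (KO1) and 561 (KO2), a log2 difference of 1.13 (SE 0.13, edgeR adjusted p = 0.000471). The WT and Bcl3-/- libraries stood far apart, and the thinned share of cells with a Klrg1 UMI was 16.7%, 21.6%, 40.1% and 41.4%. Klrc1 was at 392, 307, 590 and 579 CPM, a log2 difference of 0.74 (SE 0.14, adjusted p = 0.0156), which was 0.55 without WT2 (adjusted p = 0.0680). Klre1 was at 59.1, 69.4, 124 and 90.0 CPM, a log2 difference of 0.71 (SE 0.17, adjusted p = 0.0456), and did not hold without KO1 (0.46, adjusted p = 0.356). DESeq2, which called 0.329% of its genes as higher, called Klrg1 (adjusted p = 1.02e-08) and Klrc1 (0.00178) and gave Klre1 an adjusted p of 0.176.

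The other members gave no call in this class without the block. Klrc2 was at 46.5, 30.7, 63.3 and 53.3 CPM and differed by 0.64 on the log2 scale (SE 0.20, edgeR adjusted p = 0.129, or 0.00508 with chimera as a block, where 4.15% of all genes were called as higher). Klrd1 differed by 0.17 (SE 0.14) and Klrk1 by −0.03 (SE 0.12), with 521, 485, 495 and 497 CPM for Klrk1, the flattest member of the class. Klrb1c, at 51.0, 87.6, 94.9 and 79.6 CPM, differed by 0.27 (SE 0.20). Klra9 had 7, 1, 18 and 18 UMIs and Klra7 4, 71, 24 and 18 UMIs in this class. Single libraries decided some of these outcomes: without WT1, Klrc2 (0.92, adjusted p = 0.000567) and Klra7 (−1.74, 1.37e-05) passed, where 5.02% of all genes were called, whereas without WT2 the log2 difference of Klrc2 was 0.30 (adjusted p = 0.566). Klra9 was also called there, but on 1 UMI in the remaining WT library against 18 in each Bcl3-/- library. In turn, without WT2 Klrb1c passed (0.75, adjusted p = 0.0143), where 1.42% were called as higher.

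These differences depended on which cells formed the class. With the Klr genes kept in the clustering, the log2 difference of Klrg1 was 0.35 (adjusted p = 0.311), of Klrc1 0.35 (0.393) and of Klre1 −0.48 (0.458, edgeR), and with 30 principal components they were 0.15 (0.843), 0.26 (0.753) and −0.12 (0.910), where 0.613% and 0.509% of all genes were called. With markers asked to be 1.5-fold higher, Klrg1 (1.07, adjusted p = 0.000215), Klrc1 (0.72, 0.0135), Klre1 (1.05, 0.0288) and Klrc2 (0.86, 0.00825) passed, where 1.56% of genes did in that direction. Those clusterings placed 459, 1109, 1169 and 1093 cells of WT1, WT2, KO1 and KO2 (Klr genes kept), 178, 887, 910 and 1074 cells (30 components) and, in WT1, 1601 cells (1.5-fold) in the class. WT1 held a second cluster of 974 cells led by Gzma, S1pr5, Cx3cr1 and Zeb2 that did not reach 3 markers at 2-fold and stayed unnamed. Its Klrg1 level was 277 CPM, above the 236 CPM of the named cluster, and its Klrc1 level was 408 CPM against 390 CPM. For these genes the terminal class of WT1 was thus highest only against the unnamed clusters pooled. The named cluster had a median depth of 2217 UMIs, against 3571 in all WT1 cells.

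**Figure D3:**
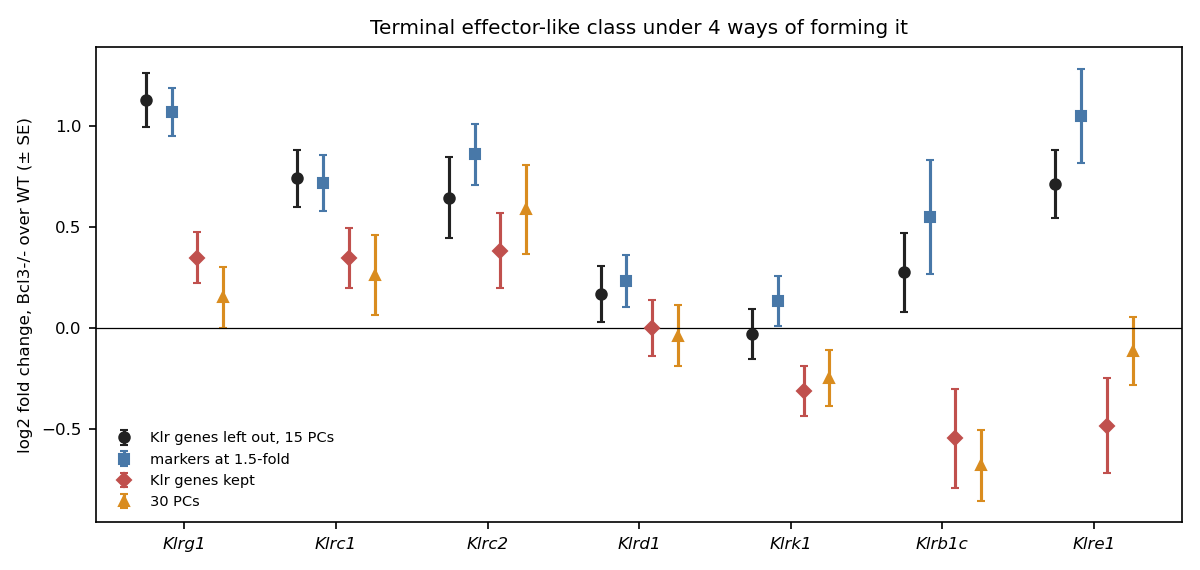
Log2 difference of Bcl3-/- over WT ± SE for 7 members in the terminal effector-like class, formed in 4 ways. Klrg1 lies at 1.13 and 1.07 for the 2-fold and 1.5-fold marker rules and at 0.35 and 0.15 with Klr genes kept or 30 principal components.

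In the unnamed clusters none of the 8 members tested was called, against 0.269% of all genes. Klrg1 was at 203, 169, 208 and 163 TMM-scaled CPM, a log2 difference of 0.00 (SE 0.15, adjusted p = 0.997). Klrc2 differed by 0.56 (adjusted p = 0.175, or 0.0393 with the block, where 1.63% of genes were called as higher), while Klrb1c and Klre1 had log2 differences of −0.66 and −0.62 that did not pass (edgeR adjusted p = 0.435 and 0.479). Klrc2 alone of these members had an unadjusted p under 0.05, beside 1207 of the 10399 genes tested. Klrc1 passed there without WT1 alone (0.68, adjusted p = 0.0195, where 2.02% of genes were called as higher). This class held unlike clusters in the 4 libraries: beside the 974 cells of WT1 led by Gzma, it held 321 cells of WT1 led by the cycling genes Ccnb2 and Cenpa, 778 cells of KO1 led by Il7r, Tcf7 and Ltb, and 1481 cells of KO2 led by Cd7 and Tcf7. The part of that mix in the differences within the class was not tested. Klrg1 ranged from 113 to 277 CPM over its clusters. Between the terminal and the unnamed class the genotype difference itself differed for 3 members, by an edgeR interaction term with each library as a block, which called 1.73% of all genes. This term was 1.10 for Klrg1 (SE 0.12, adjusted p = 2.26e-06), 1.40 for Klre1 (SE 0.18, adjusted p = 3.77e-05) and 1.00 for Klrb1c (SE 0.16, adjusted p = 0.000506). It was 0.24, −0.37 and −0.01 with the Klr genes kept in the clustering and 0.06, 0.59 and −0.02 with 30 components, with none of the 3 called, where 0.993% and 0.0% of all genes were. With 1.5-fold markers, where 3.33% of all genes were called, the 3 calls stood. The term of Klrc1 was 0.36 (adjusted p = 0.0551) and passed with 1.5-fold markers (0.26, adjusted p = 0.0138) and without WT2 (0.48, adjusted p = 2.11e-06, with 5.33% of all genes called), and that of Klrk1 was −0.20 (adjusted p = 0.370) and passed without WT2 (−0.31, adjusted p = 0.00473) and with the Klr genes kept (−0.50, adjusted p = 4.17e-05).

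Cycling cells gave no call among 7 members tested, where 0.471% of all genes were called. An unadjusted p under 0.05 was reached by 4 of the 7 and by 1088 of all 9333 genes tested. Klrg1 was at 133, 124, 243 and 195 TMM-scaled CPM, with both Bcl3-/- libraries above both WT libraries, and differed by 0.76 (SE 0.14, edgeR adjusted p = 0.0575). The cycling class of WT1 did not hold the 321 cells led by Ccnb2 and Cenpa that stayed unnamed, with Klrg1 at 223 CPM, while clusters with both genes among their leading ones were named cycling in each library, and the part of this in the difference was not tested. With chimera as a block it was called (adjusted p = 3.26e-09), as were Klrc1 (0.60, adjusted p = 9.06e-07) and Klrd1 (0.29, adjusted p = 0.0282), where 3.41% of genes were called as higher. DESeq2 also called Klrg1 there (adjusted p = 0.0124, with 0.253% of its genes called as higher). Klrg1 passed in each of the 4 fits that left out 1 library, and Klrc1 without WT1 (0.88) and without KO1 (0.67) but not without WT2 (0.34, adjusted p = 0.691) or KO2 (0.51, 0.224, edgeR), where 1.47%, 0.753%, 1.78% and 1.05% of genes were called as higher without WT1, WT2, KO1 and KO2. In the interferon-stimulated class Klrg1 differed by −0.14 (SE 0.22) and Klrc1 by 0.50 (SE 0.16, edgeR adjusted p = 0.183). With the block the adjusted p of Klrc1 was 0.00647, where 1.94% of genes were called as higher. Without the block none of the 7 members tested was called (1.55% of all genes). Klrc1 and Klre1, 2 of the 7, had an unadjusted p under 0.05, as did 771 of 6894 genes. MPEC/naive-like cells held only 33, 18, 37 and 14 Klrg1 UMIs in WT1, WT2, KO1 and KO2, and the log2 difference of 0.89 (SE 0.42) had an adjusted p of 0.614, where 0.68% of genes were called, and 0.000434 without KO2 (1.61), where 0.614% were called as higher.

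**Figure D4:**
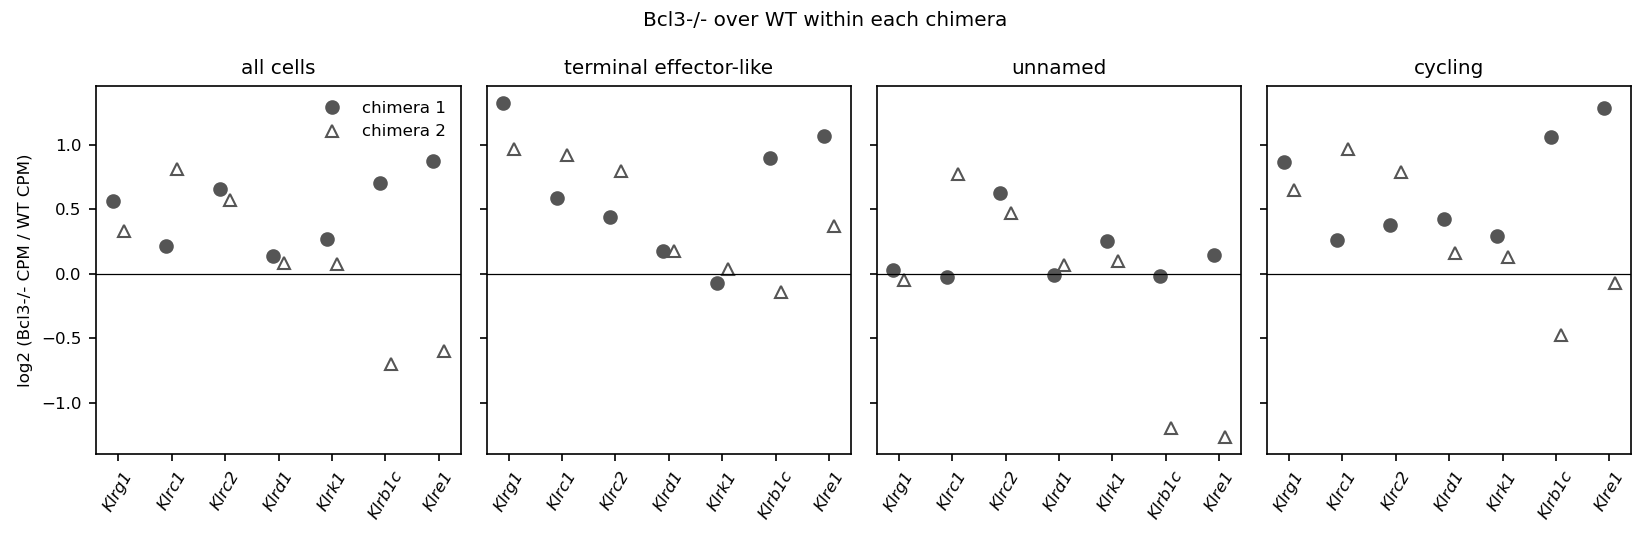
Log2 ratio of Bcl3-/- to WT within each chimera for 7 members, in all cells and in the terminal effector-like, unnamed and cycling classes. Klrg1 is above 0 in both chimeras in all cells, the terminal and the cycling class, and Klrb1c and Klre1 lie on opposite sides of 0 in the 2 chimeras in all cells.

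Cells with Klrb1c had Klre1 more often than the other cells did, in each library. Among T cells thinned to 1000 UMIs, no member was seen in 31.4% of WT1, 34.9% of WT2, 26.0% of KO1 and 27.6% of KO2 cells, and the mean number seen was 1.10, 1.07, 1.29 and 1.25. Thinning lowers these numbers, which do not limit how many receptors a cell expresses: unthinned, Klrd1 had a UMI in 76.1%, 56.5%, 78.4% and 70.2% of T cells. Cells with a Klrc1 UMI had a UMI of Klrd1, whose product pairs with it, in 43.0%, 42.6%, 46.8% and 43.2% of cases, against 37.6%, 33.6%, 38.1% and 36.2% of the cells without Klrc1. Klre1 was seen in 8.11%, 7.75%, 15.9% and 12.6% of cells with Klrb1c, against 2.23%, 3.38%, 3.06% and 2.57% of the others, and Klrg1 was seen in 29.0%, 31.2%, 35.3% and 33.1% of cells with Klre1, against 14.2%, 13.7%, 19.8% and 17.2%. These are descriptions over cells of 1 library each, and cells are not replicates.

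Part of the signal of several members, most of all Klre1 and then Klrb1c, came from cells with another Ly49 gene, Klra1 in WT2 or Klra3 in WT1, and these cells were unevenly spread over the libraries. Klra1 had 1348 UMIs in WT2 and 20, 1 and 1 in WT1, KO1 and KO2. It was seen in 559 T cells of WT2, 7.24% of them. These cells held 57.4% of the Klre1 UMIs of the T cell clusters of that library, with Klre1 at 294 CPM in them and 18.4 CPM in the rest. They held 19.6% of the Klrb1c UMIs (100.2 and 34.7 CPM), 16.1% of those of Klrk1, 15.5% of Klrc1 and 14.2% of Klrg1. In thinned cells Klre1 was seen in 26.5% with and 1.72% without Klra1, Klrk1 in 51.5% and 24.8%, Klrc1 in 40.3% and 18.5%, and Klrg1 in 27.2% and 13.3%. Cd3e was seen in 36.7% of them and in 35.8% of the others, and Cd8b1 in 67.7% and 81.3%. Of the 9 natural killer markers looked at, 6 were seen in a larger share of the cells with Klra1, among them Fcer1g (16.2% against 6.82%), Cd7 (11.6% against 8.97%) and Tyrobp (3.81% against 2.97%), whereas Ncr1, Klra8 and Klra4 were seen in none of the 551 thinned cells with Klra1 and in at most 0.0862% of the others. Xist, the RNA of the inactive X chromosome, was seen in 7.62% with and 25.4% without Klra1, and whether both sets of WT2 cells have the same source was not tested, which bears on the Klre1 level of WT2 and on its ratio in chimera 2.

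Klra3 was the counterpart in WT1, with 788 UMIs there against 179, 281 and 124 in WT2, KO1 and KO2. The 394 T cells of WT1 with Klra3, 8.52% of its T cells, held 41.0% of the Klre1 UMIs, with Klre1 at 94.7 CPM in them and 12.6 CPM in the rest, and 24.9% of the Klrb1c UMIs (50.5 and 14.1 CPM), against 14.3% of those of Klrk1. Klrk1 was seen in 39.6% and 23.7% of thinned cells with and without Klra3. In the other libraries the T cells with Klra3 were fewer, at 111 (WT2), 173 (KO1) and 77 (KO2). Klre1 was at 81.3 CPM in them and 39.1 CPM in the rest in WT2, at 53.4 and 35.3 in KO1, and at 78.7 and 26.7 in KO2. The thinned share with Klre1 was 8.11% against 3.47% in WT2 and 7.79% against 2.73% in KO2, but 3.47% against 3.44% in KO1. In WT2, 3 cells had both Klra1 and Klra3, where 8.04 would be expected if they were independent. Other pairs went both ways, with Klra1 and Klra7 together in 2 cells of WT2 (3.11 expected). Klra3 and Klra7 were together in 6 cells of KO1 (0.804 expected) and 4 of KO2 (0.305 expected). T cells with Klra7 had Klre1 at 212, 239 and 240 CPM in WT2, KO1 and KO2, against 38.8, 35.0 and 26.6 CPM in the rest. An alternative added after seeing the data left out every cell with Klra1 or Klra3. The log2 difference of Klre1 between the genotypes moved from 0.08 to 1.04 (edgeR adjusted p = 0.134, where 0.338% of all genes were called). That of Klrb1c moved from −0.10 to 0.13, while Klrg1 stayed near, at 0.53 (adjusted p = 0.150). The cells left out were rich in Klre1 and Klrb1c and more frequent in the WT libraries. The direction of the shift in these genes was thus set by that choice.

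**Figure D5:**
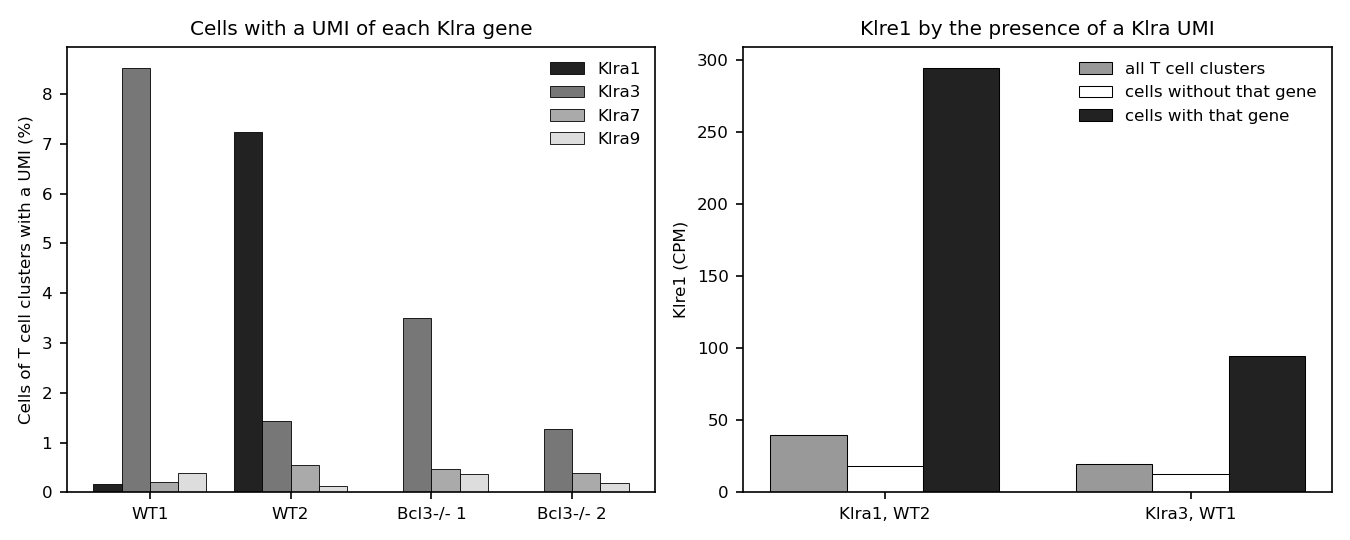
Left, percent of the cells in T cell clusters with a UMI of Klra1, Klra3, Klra7 or Klra9 in each library. Right, Klre1 level in CPM in all T cell clusters, in cells without and in cells with Klra1 (WT2) or Klra3 (WT1), where it reaches 294 and 94.7 CPM in the cells with the gene.

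Contaminating natural killer cells were looked for by a list of 9 of their markers. Their summed level in the T cell clusters was 183, 241, 196 and 171 plain CPM in WT1, WT2, KO1 and KO2. Cd7 was the most abundant at a mean of 80.1 CPM. None of the 9 was called between the genotypes in all cells by edgeR or DESeq2. Fcer1g and Gzmc had an unadjusted p under 0.05 in each, as did 1808 of 11566 genes in edgeR and 1068 of 16538 in DESeq2. With chimera as a block Tyrobp was called higher (adjusted p = 0.0312) and Fcer1g (0.0392) and Gzmc (0.0343, edgeR) lower in Bcl3-/- cells, 3 of the 9, where that fit called 9.65% of all genes in either direction. Ncr1, their defining gene, had a UMI in 10, 8, 4 and 10 cells of the 4 libraries. Of these cells, nearly all were in T cell clusters and 10, 8, 2 and 7 had Cd3. Among thinned T cells with Klra7, Ncr1 was seen in 2.38% (WT2), 13.04% (KO1) and 8.33% (KO2), and in at most 0.0997% of the others. These sets held 42, 23 and 24 cells. Tyrobp was seen in 4.76%, 17.4% and 20.8%, against 3.03%, 5.36% and 2.73%. Cd8b1 gave 45.2%, 60.9% and 70.8%, against 80.5%, 86.1% and 85.5%, and Cd3e 30.95%, 47.8% and 62.5%, against 35.9%, 56.9% and 61.9%. Whether cells with Klra7 were natural killer cells was not tested. WT2, the library with the most Klrb1c, Klre1 and Klra7, was also highest for this list, whose part in those levels was not tested.

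Most other genes of the pathway were not called. Of 14 adaptors and proximal signaling genes, all were tested in all cells and none was called by edgeR or DESeq2 (2 and 1 with an unadjusted p under 0.05). Over all genes, 1808 of 11566 in edgeR and 1068 of 16538 in DESeq2 had an unadjusted p under 0.05. The median log2 difference of the 14 was 0.04 against 0.01 over all genes. Hcst, which encodes DAP10, was at 1071, 952, 1237 and 938 CPM in WT1, WT2, KO1 and KO2. With the block Tyrobp, encoding DAP12, rose by 0.28 (adjusted p = 0.0312) and Fcer1g, the FcRγ chain, fell by 0.35 on the log2 scale (adjusted p = 0.0392, edgeR), 2 of the 14 beside 9.65% of all genes called in that fit. Of 14 ligand genes 7 were tested by edgeR and none was called, and DESeq2 called H2-T23, the 1 with an unadjusted p under 0.05 in edgeR, where 0.762% of its genes were called as higher. With the block H2-T23, which encodes Qa-1, rose by 0.64 (adjusted p = 0.00580), from 30.6 and 25.4 CPM in WT1 and WT2 to 37.6 and 50.4 CPM in KO1 and KO2.

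Among transcription factors known to act on effector genes 1 of 12 tested in all cells was called by edgeR without the block, where 0.363% of all genes were. It was Zeb2, a repressor that promotes terminal effector differentiation, at 46.5, 49.8, 74.4 and 73.5 CPM, a log2 difference of 0.62 (SE 0.08, edgeR adjusted p = 0.0408). It passed without WT1 but not without WT2 (adjusted p = 0.0724), KO1 (0.0502) or KO2 (0.0708). The median of the 12 was 0.21. With the block 6 of the 12 rose, Eomes, Ets1, Id2, Klf2, Tbx21 and Zeb2, and none fell, where 4.81% of all genes were called as higher. Tbx21, encoding T-bet, rose by 0.24 with the block (adjusted p = 0.0413), and Id2 by 0.89 (adjusted p = 2.87e-05). Of the 17 other Klr genes 8 were tested and none was called. Klra1 had an unadjusted p under 0.05, as did 1808 of 11566 genes. DESeq2 called Klra1 as lower, where 69 of its 16538 genes were called as lower. With the block Klra1 and Klra3 fell, 2 of the 8 beside 9.65% of all genes called.

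Across 29 combinations of class and library, which include the B cell-like, myeloid-like and plasma cell-like clusters, the genes whose log2(CPM + 1) followed each member most closely were ranked by Pearson correlation among 5115 genes, as a description without a p-value, since the points share libraries and depth. Klrg1 was closest to Gzma (r = 0.91), Esm1 (0.85) and Asrgl1 (0.85). Klrc1 was closest to Tbx21 (0.97), Ifitm10 (0.96) and Lfng (0.96), and Klrd1 to Nkg7 (0.97), Lfng (0.97) and Cd8b1 (0.96). Klrk1 followed Lfng (0.96), Arl4c (0.95) and Tmem50a (0.94), and Klrc2 followed Fgf13 (0.93), Fyn (0.92) and Cd8b1 (0.92). Klre1 and Klrb1c both had Ccl5, a chemokine gene of effector T cells, first (0.87 each), followed by Il18rap and Bscl2 (0.83 each) for Klre1 and by Ifitm10 (0.85) and Jak1 (0.82) for Klrb1c. Klra9 and Klra7, whose few UMIs make their ranking uncertain, reached 0.60 with Aamp, 0.57 with Atp2b1 and Phax, and 0.67 with Gzma, 0.62 with S1pr5 and Sgk1. Over the 20 combinations of the T cell classes alone the closest genes were others: Ctsd for Klrg1 (0.95), Il18rap for Klrc1 (0.95), Ifitm10 for Klrc2 (0.91), Tm6sf1 for Klrd1 (0.94), Ccl5 for Klrk1 (0.92), Smpdl3b for Klre1 (0.88) and Jak1 for Klrb1c (0.84). Tbx21 followed for Klrg1 (0.94), and Ccl5 gave 0.87 for Klre1 and 0.83 for Klrb1c.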

How the data were processed

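The deposited files held UMI counts per gene and barcode for 4 droplet libraries (10x 3′ v2), which per the labels and the authors' methods were made with bcl2fastq 2.17 and Cell Ranger 2.2.0 on mm10. The authors' counts are raw and unnormalized, and no other column of per-sample values was used. Cells were barcodes from 500 genes upward with up to 10% mitochondrial UMIs, and no doublet caller was run, so doublets remain. Samples were grouped by the genotype in the labels, with chimera as the replicate number (n = 2 per genotype). Total depth was 20358780 to 22922219 UMIs, and intervals on shares cover counting error only.

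UMI counts were summed per library, or per library and class, and tested with edgeR 4.0.16 (quasi-likelihood, TMM, filterByExpr) in R 4.3.3, with Benjamini-Hochberg adjustment at 0.05. Each chimera's WT and Bcl3-/- cells come from 1 animal, so chimera as a block was fitted as well, and library differences correlated between the genotypes (r = 0.255 over 6862 genes above 10 CPM). The authors describe the second chimera as an independent experiment. Both genotypes thus came from the same 2 animals, and animal and experiment cannot be told apart. Without the block, p-values rest on the spread between the libraries of a genotype. With it, they rest on how alike the difference between genotypes was in the 2 animals. Clusters were formed per library with Seurat 5.3.0 (2000 variable genes without Klr symbols, 15 principal components, resolution 0.8). A class name needed at least 3 markers 2-fold above the other cells among markers seen in at least 10% of cells, and clusters under 1% of cells were left out. Simulated counts with 200 changed genes returned 85.5% of 2-fold and 96.5% of 4-fold changes for all cells without the block (11461 and 11437 genes). Alternatives were DESeq2 1.42.0, the block, leaving out each library, filters on genes and cells, thinning, and other clusterings.

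The 9 members and all lists were chosen with earlier results of these data known. The text names the members, genes called in the fixed lists (adaptors, ligands, transcription factors, other Klr genes) and for each member the 3 most correlated genes outside the Klr family, among genes with a mean of at least 20 CPM. Proteins were not analysed here. Promoters are RefSeq windows on GRCm38.p6 and gene positions are from GENCODE on GRCm38.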

Additional observations from a re-analysis of the deposited data

Results flagged for a closer look

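In all cells 4 members had opposite signs in the 2 chimeras, with log2 ratios of Bcl3-/- over WT of 0.71 and −0.70 for Klrb1c, 0.87 and −0.60 for Klre1, −0.16 and 0.70 for Klra9, and 1.23 and −1.28 for Klra7. The difference between chimeras was not tested, since each holds 1 library per genotype, and Klra9 rests on 15 to 28 UMIs a library. In the terminal effector-like class the same held for Klrk1 (−0.074 and 0.034), Klrb1c (0.90 and −0.14) and Klra7 (1.48 and −1.93), also untested. Beside these values, cells with Klra1 were nearly confined to WT2, at 559 T cells against 8, 0 and 1 in WT1, KO1 and KO2. In the T cell clusters of WT2, Klre1 was at 39.8 CPM with all cells and 18.4 CPM without those cells. Klrb1c was at 39.8 CPM with all cells and 34.7 CPM without them. KO2, at 27.4 CPM for Klre1 and 25.5 CPM for Klrb1c, kept all its cells, so the reduced WT2 levels are not comparable with it. Beyond these values, the part of cells with Klra1 in the chimera differences was not tested.

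The signed log2 difference of Bcl3-/- over WT was higher in the terminal effector-like class than in the unnamed clusters by 1.10 for Klrg1, 1.00 for Klrb1c and 1.40 for Klre1, by edgeR's interaction term. Klrg1 had 1.13 and 0.00 in the 2 classes, whereas Klrb1c had 0.27 and −0.66, neither of them called, and Klre1 had 0.71 and −0.62, of which the first was called. These 3 were called with 2-fold and 1.5-fold markers and with each library left out, and not with the Klr genes kept in the clustering or with 30 principal components.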

How the results depend on the processing

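Leaving out a library leaves a lone sample that is assumed to vary like the other group, and alternatives on Klra1 or Klra3 cells, on 1.5-fold markers outside the class ratios, on the classes of other clusterings and on the interaction were chosen after seeing the data. The pairing by chimera, fitted as a replicate block, raised the genes called from 42 to 1116 in all cells, 32 to 1578 in T cell clusters, 28 to 328 in unnamed clusters, 191 to 736 in the terminal class, 45 to 133 in MPEC/naive-like, 44 to 627 in cycling and 107 to 351 in interferon-stimulated cells. It called Klrg1 (0.45), Klrc1 (0.51) and Klrc2 (0.62) in all cells and turned Klrg1 in the unnamed clusters to −0.0020. Besides the calls with the block given in the text, it changed no other call of a member. DESeq2 called 195, 170, 100, 87, 18 and 66 genes in all cells, T cell clusters, unnamed, terminal, MPEC/naive-like and interferon-stimulated cells, called Klrc2 in all cells (0.61), and gave Klrg1 −0.0099 in the unnamed clusters. Markers at 1.5-fold gave 18 genes in the unnamed, 23 in the MPEC/naive-like class and 336 for the interaction, and turned Klrk1 to 0.13 in the terminal class. With the Klr genes kept in the clustering the terminal class gave 52 genes and the interaction 102, Klrd1 turned to −0.0011, Klrb1c to −0.55 and Klre1 to −0.48 in that class, and the interaction was 0.24 for Klrg1, −0.052 for Klrc1, −0.19 for Klrc2, −0.038 for Klrd1, −0.012 for Klrb1c and −0.37 for Klre1. With 30 principal components the terminal class gave 42 genes, Klrd1 −0.039, Klrb1c −0.68, Klre1 −0.12 and Klra9 −0.13, and the interaction gave 0 genes by edgeR (506 at an unadjusted p under 0.05; no other tool was run), with 0.060 for Klrg1, −0.068 for Klrc1, −0.054 for Klrd1, −0.015 for Klrb1c and 0.59 for Klre1. Leaving out cells with Klra1 or Klra3 turned Klrb1c to 0.13. The difference in the share of cells turned to 0.62 points for Klrb1c without thinning and 0.027 with at least 800 genes, and to −0.013 for Klre1 at 500 UMIs. Terminal-over-unnamed log2 ratios moved to 1.66 for Klrg1, 0.54 for Klrd1, 0.73 for Klrk1, 2.45 for Klrb1c and 2.71 for Klre1, and terminal-over-MPEC/naive-like to 3.72 for Klre1, with Klr genes kept, and to 0.96 for Klrd1 and 0.93 for Klrk1 at 1.5-fold. The ratios were not run at resolution 0.4, where no WT cluster was named terminal. The causes were not tested. With each library left out in turn, genes called ranged from 40 to 228 in all cells, 39 to 194 in T cell clusters, 30 to 324 in unnamed, 154 to 454 in terminal, 42 to 73 in MPEC/naive-like, 131 to 308 in cycling and 91 to 132 in interferon-stimulated cells, and 72 to 564 for the interaction. In all cells the log2 difference ranged from 0.29 (without KO1) to 0.61 for Klrg1, 0.10 (without WT1) to 0.23 for Klrk1, 0.52 to 0.71 for Klrc2, 0.25 to 0.77 for Klrc1, −0.0067 to 0.23 for Klrd1, −0.57 to 0.58 for Klrb1c, −0.32 to 0.63 for Klre1, −0.18 to 0.71 for Klra9 and −1.09 to 1.05 for Klra7. In the terminal class it ranged from 0.30 to 0.92 for Klrc2, 0.045 to 0.29 for Klrd1, −0.094 to 0.029 for Klrk1, −0.0066 to 0.75 for Klrb1c and −1.74 to 1.28 for Klra7. Klrg1 ranged from −0.19 to 0.17 in unnamed, −0.18 to 1.61 in MPEC/naive-like and −0.56 to 0.24 in interferon-stimulated cells, Klrc1 from −0.044 to 0.53 in MPEC/naive-like, 0.34 to 0.88 in cycling, 0.072 to 0.68 in unnamed and 0.28 to 0.67 in interferon-stimulated cells, and the Klrc2 interaction from −0.22 to 0.33. Klrg1 and Klrc2 kept their direction in all cells in every alternative run. The 15 to 114 UMIs of Klra9 and Klra7 a library limit what can be said of them.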

Other observations

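Over all cells Xist, the RNA of the inactive X chromosome, was at 34.7 TMM-scaled CPM (WT1), 321 (WT2), 45.1 (KO1) and 330 (KO2), so it followed the chimera. Within WT2 it was lower in the cells with Klra1, and the source of those cells was not tested.

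Barcodes with 1 to 50 UMIs, far below the filter on cells, held Klrg1 at 152 CPM (WT1), 143 (WT2), 285 (KO1) and 261 (KO2), and Klrd1 at 528, 486, 578 and 606 CPM.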
